A study of Homo sapiens with 6 samples.

Results

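NOLC1 and 9 other genes for nucleolar proteins that chaperone, build or accompany small nucleolar ribonucleoproteins (snoRNPs) were followed after NUF2 knockdown, 10 of the 32985 genes in the deposited table. The 10 genes were NOLC1 and TCOF1 (phosphoprotein chaperones), FBL, NOP56 and NOP58 (box C/D snoRNP proteins), DKC1, NHP2, NOP10 and GAR1 (box H/ACA snoRNP proteins) and NCL (nucleolin). They were matched by gene symbol, and the set was selected on the rise of NOLC1 in FPKM and counts of these same libraries, so the values of NOLC1 between groups are given as a description without a test. All 10 had a mean of at least 1 FPKM, a read level scaled by transcript length and library size, over the libraries and entered the fit across genes. RNA-seq was performed on poly(A) RNA of siRNA-transfected 8505C cells, an anaplastic thyroid cancer (ATC) cell line. The sample titles give a time of 24 h and do not say from when it counts. The 3 siCtrl libraries came from cells of genotype WT given control siRNA, and the 3 siNUF2 libraries from NUF2 knockdown cells given siRNA against NUF2, a subunit of the NDC80 kinetochore complex. All 6 libraries share the cell line and the medium, and the knockdown rests on a single siRNA sequence in a single line, so effects of the siRNA beyond NUF2 cannot be told apart from those of the knockdown.

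Box C/D snoRNPs place methyl groups on the ribose of ribosomal RNA, and box H/ACA snoRNPs turn uridine into pseudouridine. In both, a small guide RNA pairs with the target and a fixed set of core proteins carries the enzyme, which is fibrillarin (FBL) in the first kind and dyskerin (DKC1) in the second. NOLC1 (also called Nopp140) is a heavily phosphorylated protein that binds both kinds of snoRNP and moves between nucleoli and Cajal bodies, and its relative TCOF1 (treacle) works in ribosomal DNA transcription and pre-rRNA modification.

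Many guide RNAs are cut from introns, and several of the 10 genes are themselves hosts. Among the deposited genes, 13 snoRNA genes lay inside the span of a member on the same strand: 5 in NOP56, 3 in NOP58, 3 in NCL and 2 in DKC1. All 13 fell in introns of the canonical host transcript of GENCODE release 44, and 9 were box C/D and 4 box H/ACA by name. The letters of 7 of them are shown because they carry the boxes that the proteins described here recognise. Capitals mark the C box TGATGA in the first 20 bases and the D box CTGA in the last 20 bases of box C/D snoRNAs, and the ACA in the last 10 bases of box H/ACA snoRNAs. The first 4 are box C/D snoRNAs, read 5′ to 3′ from GRCh38: SNORD57 (intron 10 of NOP56, chr20:2656939-2657010, plus strand), SNORD110 (intron 3 of NOP56, chr20:2654212-2654286, plus strand), SNORD11 (intron 9 of NOP58, chr2:202293051-202293134, plus strand) and SNORD20 (intron 11 of NCL, chr2:231456444-231456523, minus strand).
SNORD57: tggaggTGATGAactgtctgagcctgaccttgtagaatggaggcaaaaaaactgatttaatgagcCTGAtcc
SNORD110: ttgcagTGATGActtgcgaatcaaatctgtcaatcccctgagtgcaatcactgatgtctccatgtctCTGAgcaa
SNORD11: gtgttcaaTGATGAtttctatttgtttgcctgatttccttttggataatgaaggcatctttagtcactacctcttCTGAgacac
SNORD20: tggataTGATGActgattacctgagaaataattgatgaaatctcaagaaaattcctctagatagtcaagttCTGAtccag

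The next 3 are box H/ACA snoRNAs: SNORA51 (intron 5 of NOP56, chr20:2655067-2655198, plus strand), SNORA36A (intron 8 of DKC1, chrX:154768528-154768659, plus strand) and SNORA75 (intron 12 of NCL, chr2:231455800-231455936, minus strand).
SNORA51: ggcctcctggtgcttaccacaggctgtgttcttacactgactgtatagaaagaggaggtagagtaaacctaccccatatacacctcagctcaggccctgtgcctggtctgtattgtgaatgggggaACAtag
SNORA36A: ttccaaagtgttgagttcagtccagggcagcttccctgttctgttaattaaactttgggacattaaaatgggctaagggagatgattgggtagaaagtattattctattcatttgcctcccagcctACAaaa
SNORA75: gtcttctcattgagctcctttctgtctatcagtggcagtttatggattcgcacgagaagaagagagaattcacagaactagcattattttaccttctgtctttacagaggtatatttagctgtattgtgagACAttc
All 4 box H/ACA snoRNAs ended in ACA within 10 bases of the annotated end, with 3 bases after it in the 3 printed. A D box was found in 9 of the 9 box C/D snoRNAs and an exact C box in 6. The rows of the 13 snoRNAs held between 0 and 43 counts per library. Selection of poly(A) RNA does not keep mature snoRNAs, so these rows do not measure them, and what follows concerns the mRNAs of the proteins.

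Total counts per library were between 61257859 and 69755291, and the 9 genes other than NOLC1 took 0.271% to 0.288% of the counts in siCtrl and 0.285% to 0.333% in siNUF2, ranges that overlap. NUF2 was at 14.8, 14.5 and 12.2 FPKM in siCtrl and 1.53, 2.05 and 1.56 in siNUF2, 12.4% of the control mean. Of 11725 genes tested with edgeR, 468 passed a Benjamini-Hochberg adjusted p of 0.05, 179 higher and 289 lower in siNUF2, and the median log2 fold change was 0.0069. Of the thyroid markers read, NKX2-1 (14.6 to 21.5 FPKM) and HHEX (5.16 to 6.58) were expressed, while TG, SLC5A5, FOXE1 and DUOX2, which mark differentiated thyroid cells, were at or near 0. The summed FPKM of 12 markers of immune, endothelial and stromal cells was 4.52 to 7.03 in siCtrl and 2.50 to 9.31 in siNUF2. PTPRC, the leukocyte marker CD45, was at 0.518 FPKM in siCtrl library 1 and 0.147 in siNUF2 library 1 and at most 0.0178 in the other 4. CD3E was at 0.115 and 0.0420 in these libraries and 0 elsewhere. CDH5 was higher in siCtrl library 2 (1.87) and siNUF2 library 2 (2.72) than elsewhere (0.496 to 0.762). COL3A1 was lower in siCtrl library 1 (0.0731) and siNUF2 library 1 (0.347) than elsewhere (1.03 to 2.00). The part of these markers in the results below was not tested.

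**Figure D1:**
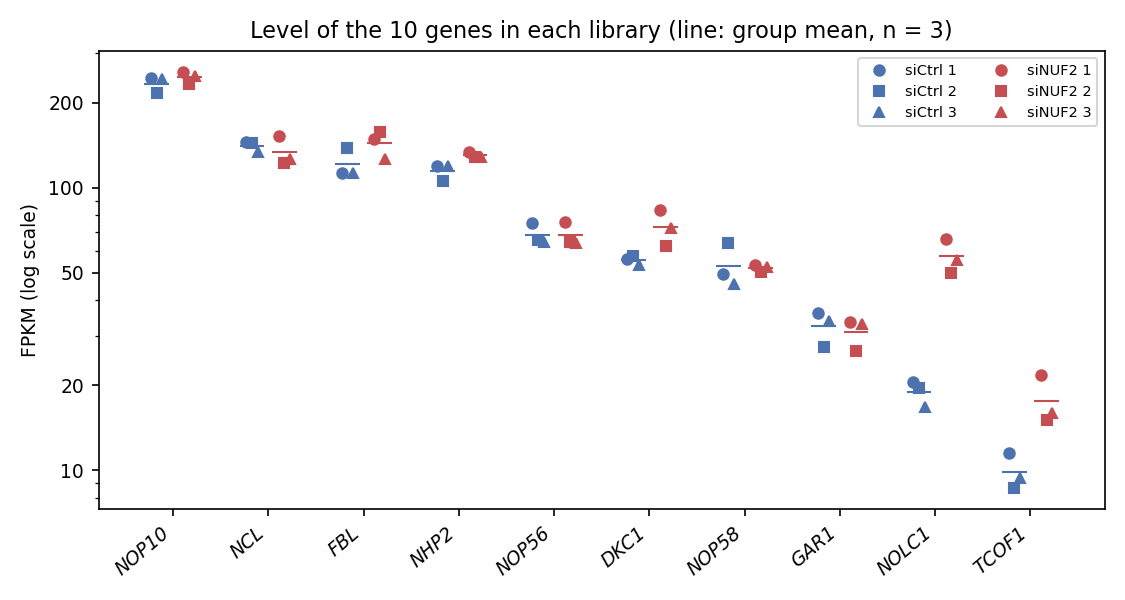
FPKM (log axis) of the 10 genes in each of the 6 libraries, siCtrl in blue and siNUF2 in red, with the shape giving the replicate number and the line the mean of 3 libraries. NOLC1 moved from 16.7 to 20.6 FPKM in siCtrl to 50.003 to 66.04 in siNUF2, and most other genes held similar levels in both groups.

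NOLC1 lies on chromosome 10 of GRCh38, on the plus strand from 102152176 to 102163871, and its canonical transcript has 13 exons and codes for 699 residues. It was at 20.6, 19.6 and 16.7 FPKM in siCtrl libraries 1, 2 and 3 and at 66.04, 50.003 and 55.6 in siNUF2 libraries 1, 2 and 3. Every siNUF2 library was above every siCtrl library. The means were 18.96 ± 2.06 FPKM (SD, n = 3) and 57.2 ± 8.15 (n = 3), a ratio of 3.02. On the counts, from 4917 to 6602 per siCtrl library and from 15853 to 20290 per siNUF2 library, the log2 fold change fitted by edgeR was 1.61 (SE 0.13). Within replicate numbers 1, 2 and 3 the log2 difference was 1.68, 1.39 and 1.75. No other gene overlapped NOLC1 in the table and no pseudogene row of it was listed.

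TCOF1, the relative of NOLC1 that is mutated in Treacher Collins syndrome, was the next largest riser of the set. It lies on chromosome 5, plus strand, from 150357629 to 150400308, with 27 exons and 1489 residues. It was at 11.5, 8.66 and 9.41 FPKM in siCtrl and 21.8, 15.1 and 15.9 in siNUF2. The groups did not overlap, and library 1 was the highest of each group. The means were 9.84 ± 1.45 and 17.6 ± 3.68 FPKM (SD, n = 3), with a log2 fold change of 0.85 (SE 0.16) and an adjusted p of 0.0298 by edgeR. With a block for the replicate number the adjusted p was 8.5e-04, and the differences within numbers 1, 2 and 3 were 0.93, 0.83 and 0.77. The call without the block was lost in most fits that left out a library. The edgeR adjusted p was 0.0520, 0.103 and 0.0986 without siCtrl library 1, 2 or 3. It was 0.0827 without siNUF2 library 1, 0.0525 without siNUF2 library 3 and 0.0450 without siNUF2 library 2. The fold change stayed between 0.68 and 0.98 over these 6 fits. Each of them left a library without its partner in replicate number, and none used the block. TCOF1 shares 268 bases at its end with CD74, an immune gene on the opposite strand, whose counts were 435, 24 and 22 in siCtrl and 113, 35 and 20 in siNUF2. The sources used here give no strand setting, so reads from the shared bases cannot be told apart.

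The 3 box C/D proteins did not pass the edgeR test without the block. FBL, the methyltransferase of the particle (chromosome 19, minus strand, 39834458 to 39846379), was at 113, 138 and 113 FPKM in siCtrl and 149, 158 and 126 in siNUF2. The groups overlapped, since siCtrl library 2 was above siNUF2 library 3. Its log2 fold change was 0.27 (SE 0.12), with an edgeR adjusted p of 0.301 without the block and 0.0427 with it, and the differences within numbers were 0.41, 0.24 and 0.17. NOP56, a core scaffold protein (chromosome 20, plus strand, 2652593 to 2658393), was at 74.9, 65.3 and 64.2 FPKM in siCtrl and 75.9, 64.1 and 63.8 in siNUF2. The groups lay over each other, with a log2 fold change of 0.015 (SE 0.11, edgeR adjusted p = 0.961). NOP58, the partner of NOP56 in the particle (chromosome 2, plus strand, 202265736 to 202303433), was at 49.5, 63.7 and 45.5 FPKM in siCtrl and 53.5, 50.2 and 52.3 in siNUF2, with a log2 fold change of -0.0047 (SE 0.13, edgeR adjusted p = 0.991). SiCtrl library 2 was the highest of the 6 for NOP58, and the siCtrl values spread more widely (SD 9.54 FPKM) than those of siNUF2 (SD 1.64). SNU13, the fourth core protein, which binds the guide RNA first, had a log2 fold change of 0.078 (SE 0.096, edgeR adjusted p = 0.740).

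Of the 4 box H/ACA proteins, DKC1 differed most. DKC1, the pseudouridine synthase, which also binds telomerase RNA (chromosome X, plus strand, 154762742 to 154777688), was at 56.0, 57.6 and 53.4 FPKM in siCtrl and 83.7, 62.2 and 71.98 in siNUF2. The groups did not overlap, and siNUF2 library 2 lay only just above the highest siCtrl library. The means were 55.7 ± 2.12 and 72.6 ± 10.7 FPKM (SD, n = 3), and the log2 fold change was 0.40 (SE 0.11). The edgeR adjusted p was 0.110 without the block and 0.0287 with it, and DESeq2 on the same genes gave 0.0331. Differences within numbers 1, 2 and 3 were 0.58, 0.15 and 0.45. NHP2, an RNA-binding core protein (chromosome 5, minus strand, 178149463 to 178153885), was at 119.6, 106 and 119 FPKM in siCtrl and 134, 129 and 129 in siNUF2. Its groups did not overlap, but the log2 fold change of 0.21 (SE 0.090) did not pass the edgeR test without the block (adjusted p = 0.273) or with it (0.0890).

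NOP10 and GAR1, the other core proteins of the particle, were near their control levels. NOP10 (chromosome 15, minus strand, 34341719 to 34343136), with 64 residues the shortest of the 10 proteins, was at 244, 216 and 243 FPKM in siCtrl and 258, 233 and 249.7 in siNUF2, a log2 fold change of 0.095 (SE 0.094, edgeR adjusted p = 0.671). GAR1, which joins the particle late in place of the assembly factor NAF1 (chromosome 4, plus strand, 109815510 to 109824740), was at 36.1, 27.4 and 33.7 FPKM in siCtrl and 33.4, 26.5 and 32.9 in siNUF2. Its log2 fold change was -0.047 (SE 0.14, edgeR adjusted p = 0.903), and library 2 was the lowest of both groups. NCL, an abundant RNA-binding protein of the nucleolus (chromosome 2, minus strand, 231453531 to 231483641), was at 145, 144 and 134 FPKM in siCtrl and 152, 122 and 127 in siNUF2. SiNUF2 library 1 was the highest of the 6 and siNUF2 library 2 the lowest, and the log2 fold change was -0.059 (SE 0.10, edgeR adjusted p = 0.824).

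**Figure D2:**
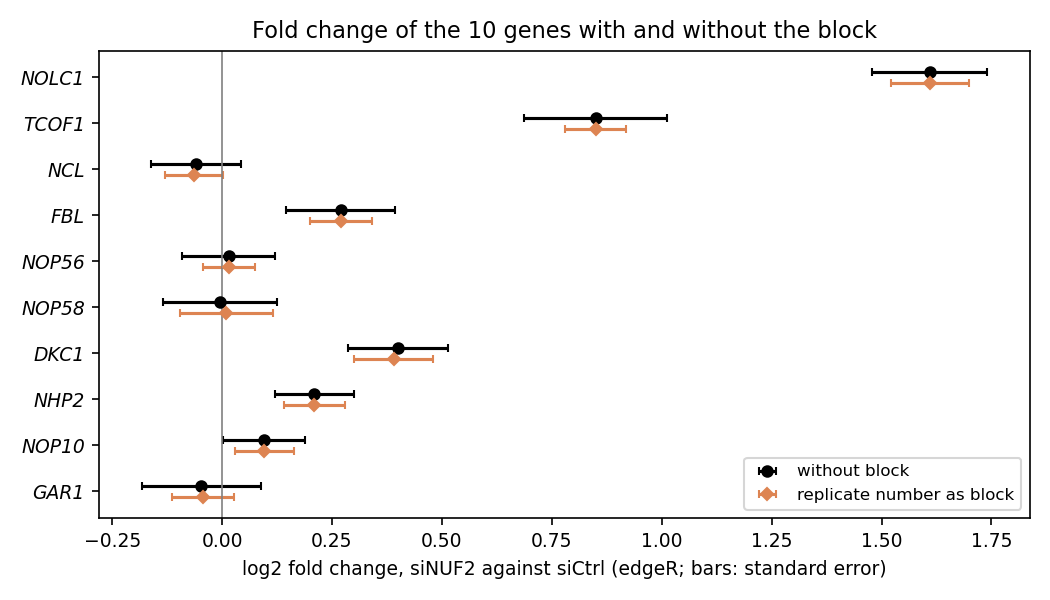
Log2 fold change of siNUF2 against siCtrl for the 10 genes, fitted by edgeR without a block (black) and with a block for replicate number (orange), with bars of 1 SE and 3 libraries per group. NOLC1 at 1.61 and TCOF1 at 0.85 stand to the right, DKC1 at 0.40 follows, and the others lie between -0.059 and 0.27.

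Of the 9 genes other than NOLC1, 1 (TCOF1) passed the edgeR test as higher in siNUF2 and 0 as lower, where 3.99% of all genes tested passed in either direction, 1.53% as higher and 2.46% as lower. An unadjusted p under 0.05 was found for 3 of the 9 and for 18.2% of all genes. DESeq2 called 2 of the 9, both higher, beside 8.23% of all genes in either direction and 3.47% as higher. With replicate number in the model as a block, 3 of the 9 (TCOF1, DKC1 and FBL) were higher and 0 lower, where 14.5% of all genes passed, 6.64% as higher and 7.91% as lower. The FPKM of the groups did not overlap for 3 of the 9 (TCOF1, DKC1 and NHP2), all higher in siNUF2, and for 23.9% of all genes tested, 10.5% as higher. The median log2 fold change was 0.15 over the 10 genes and 0.095 over the 9 without NOLC1, beside 0.0069 over all genes. An exact permutation test of 3 against 3 libraries cannot go below p = 0.1, and it gave 0.1 for TCOF1, DKC1 and NHP2.

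**Figure D3:**
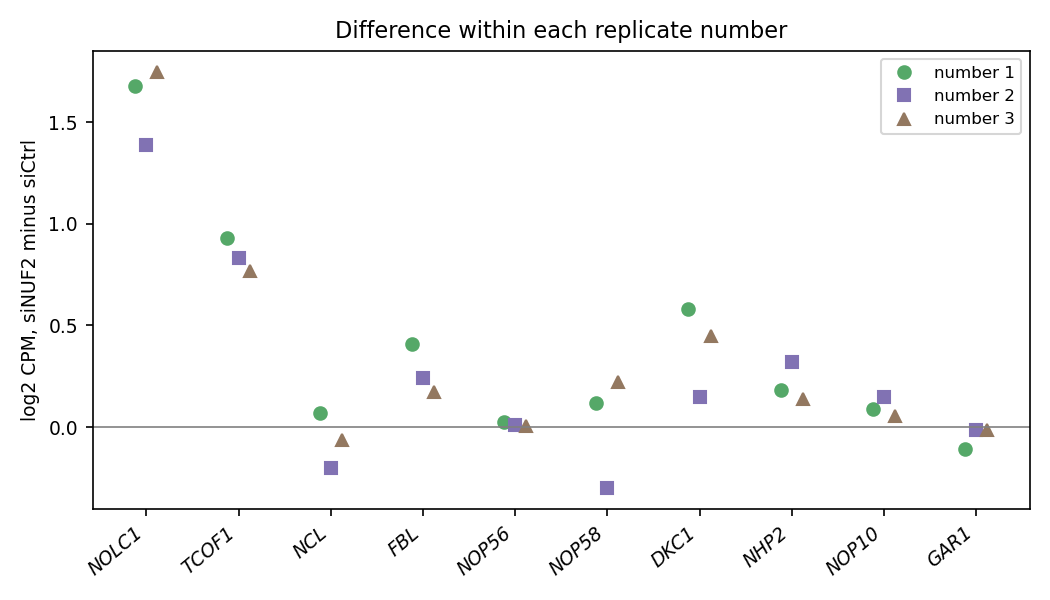
Difference in log2 CPM (counts scaled to library size) between the siNUF2 and the siCtrl library of the same replicate number, for the 10 genes and numbers 1, 2 and 3. NOLC1 (1.39 to 1.75) and TCOF1 (0.77 to 0.93) were higher in every number, while NOP58 went from -0.30 to 0.22.

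In siCtrl the level in FPKM, which allows for transcript length, ran from NOP10 (234 ± 15.8, SD, n = 3) through NCL (141), FBL (121), NHP2 (115), NOP56 (68.1), DKC1 (55.7), NOP58 (52.9), GAR1 (32.4) and NOLC1 (18.96) to TCOF1 (9.84). The ranges of NCL, FBL and NHP2 overlapped from neighbour to neighbour, as did those of DKC1 and NOP58, and the other neighbours were separate. The chaperones NOLC1 and TCOF1 were thus the lowest of the set in control cells, at the 81.6 and 65.5 percentile of the genes tested. In siNUF2 the mean of NOLC1 was 57.2 FPKM, the 94.7 percentile, and its range overlapped with those of NOP56 (67.9) and NOP58 (52.0), its neighbours in the order. TCOF1 was still the lowest, at the 80.2 percentile, and GAR1 was next to it at 30.9 FPKM.

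Core proteins of a snoRNP are held in fixed proportions in the particle, so the ratios of their mRNA levels in FPKM were compared within each library. The ratio of GAR1 to DKC1 was 0.643, 0.476 and 0.630 in siCtrl and 0.399, 0.426 and 0.458 in siNUF2. The groups did not overlap, with a log2 difference of -0.44, an exact permutation p of 0.1 and an adjusted value of 0.25 over the 5 ratios tested. The ratio of NOP10 to DKC1 was 4.35, 3.75 and 4.55 in siCtrl and 3.08, 3.74 and 3.47 in siNUF2, a log2 difference of -0.30 with the same exact permutation p, although number 2 hardly differed (-0.0034). The ratios of NHP2 to DKC1 (-0.18), GAR1 to NAF1 (-0.25) and NOP56 to NOP58 (0.0051) overlapped between groups, with an exact permutation p of 0.2, 0.3 and 0.9. None of the 5 could pass 0.05 with 3 libraries per group.

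The other genes of the pathway were read from lists by role. The counts below stand beside the same shares of all genes tested, 3.99% without the block, 14.5% with it and 18.2% at an unadjusted p under 0.05. None of 13 snoRNP assembly factors passed the edgeR test in either direction, 1 of them at an unadjusted p under 0.05, and 0 passed with the block. Those with the smallest p were SHQ1, the chaperone of DKC1, at a log2 fold change of 0.30 (edgeR adjusted p = 0.244), RUVBL1, an ATPase of the R2TP complex, at -0.22 (0.320) and TGS1, a cap methyltransferase, at -0.21 (0.475). Of 9 partners of NOLC1 and TCOF1, 1 rose and 0 fell. This was CSNK2A2, a catalytic subunit of casein kinase 2, the kinase that phosphorylates NOLC1. It was at 11.5, 11.6 and 10.8 FPKM in siCtrl and 16.5, 16.0 and 17.7 in siNUF2, a log2 fold change of 0.58 (SE 0.089, edgeR adjusted p = 0.0135). The adjusted p was 0.0588, 0.0687 and 0.0564 without siCtrl library 1, siCtrl library 3 or siNUF2 library 1. The other casein kinase 2 genes of the list, CSNK2A1 (-0.030) and CSNK2B (0.056), did not pass. SMN1 was at -0.39 (edgeR adjusted p = 0.115, with the block 0.0470), but reads of its near-identical copy SMN2 cannot be assigned with certainty, and COIL, the Cajal body scaffold coilin, was at 0.21 (0.657).

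Of 15 genes of RNA polymerase I and its initiation factors, 0 passed without the block, 3 had an unadjusted p under 0.05, a share of the list near that of all genes, and 2 were higher with the block. POLR1G, listed as CD3EAP, had a log2 fold change of 0.57 (edgeR adjusted p = 0.175), POLR1B of 0.33 (0.204, with the block 0.0455) and POLR1E of 0.29 (0.238, with the block 0.0330). Their siNUF2 levels were above the siCtrl mean in each library, with POLR1E at 27.4, 29.3 and 24.5 FPKM in siCtrl and 32.5, 36.1 and 29.2 in siNUF2.

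In the small-subunit processome, the assembly around U3 snoRNA, 2 of 35 genes fell and 0 rose, 7 had an unadjusted p under 0.05, and with the block 3 were lower and 1 higher. UTP18 was at 33.4, 31.7 and 32.0 FPKM in siCtrl and 18.6, 14.6 and 16.7 in siNUF2, a log2 fold change of -0.94 (SE 0.11, edgeR adjusted p = 0.00508). NOL11 went from 20.02 ± 0.950 to 13.2 ± 1.49 FPKM (SD, n = 3), a log2 fold change of -0.58 (SE 0.11, edgeR adjusted p = 0.0251). With any 1 of the 6 libraries left out, the adjusted p of NOL11 was between 0.0568 and 0.0877. IMP3, a U3 snoRNP protein, was at -0.44 (0.106, with the block 0.00861). The large-subunit assembly list had 0 of 36 past the test and 5 at an unadjusted p under 0.05, and with the block 2 were higher and 2 lower, among them BRIX1 (-0.43, edgeR adjusted p = 0.0559, with the block 0.0193), NIP7 (-0.47, 0.0776 and 0.0154) and NLE1 (0.30, 0.217 and 0.0455).

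NPM1, nucleophosmin, was the 1 gene of 16 other nucleolar proteins that passed, and it was lower. It was at 482, 433 and 446 FPKM in siCtrl and 259, 207 and 245 in siNUF2, a log2 fold change of -0.92 (SE 0.10, edgeR adjusted p = 0.00508), and the groups were far apart. The table held 19 NPM1 pseudogene rows with at most 2.93% as many counts as NPM1. NOL12 (0.32, edgeR adjusted p = 0.186) and GNL3L (0.25, 0.219) came next in that list. Short matches to the seed of the NUF2 siRNA were counted in the longest 3′ UTR of each gene. This UTR need not be that of the canonical transcript, so a match may lie outside it. For NOP10, 683 bases were searched, while the canonical transcript has 507 in all. For NOLC1, 3069 bases were searched, while the canonical transcript has 3723 with 2100 coding. The 7-base word TATGGAA, complementary to antisense positions 2 to 8, was present in 18.3% of 10235 UTRs of at least 50 bases. The 6-base word ATGGAA, which lies inside it, was present in 51.0%. NPM1 held 1 and 4 of them, NOL11 1 and 3, NIP7 2 and 2, BRIX1 0 and 2, UTP18 and RPS26 0 and 1, and IMP3 and SMN1 0 and 0. The UTRs of NPM1, NOL11 and NIP7 were longer (2305, 1935 and 1454 bases) than those of the rest (462 to 636), which gives more places for a match. Of these 8 genes, UTP18, NOL11 and NPM1 were lower without the block and the others with it alone. None of the 10 genes held the 7-base word, and NOLC1, NOP10, NOP56 and NCL each held 1 of the 6-base word. The part of the siRNA seed in these differences was not tested.

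Host genes of other snoRNAs did not pass without the block (0 of 20, 3 at an unadjusted p under 0.05), and 2 were higher with it. SNHG3 was at a log2 fold change of 0.41 (edgeR adjusted p = 0.190, with the block 0.0264), EIF4A1, a translation initiation helicase, at 0.29 (0.182 and 0.0347) and SNHG1 at 0.23 (0.251 and 0.104). Of 7 genes of the MYC family, 0 passed without the block and 1 had an unadjusted p under 0.05. MYC, a known activator of nucleolar genes, was at 10.6, 10.8 and 11.1 FPKM in siCtrl and 18.8, 11.9 and 15.7 in siNUF2. Every siNUF2 library was above the siCtrl libraries, library 2 by the least. The log2 fold change was 0.53 (SE 0.15, edgeR adjusted p = 0.115, with the block 0.0321). Without siNUF2 library 2 the edgeR adjusted p was 0.0349, and without any other single library it was between 0.214 and 0.306. MXD4 (0.22, edgeR adjusted p = 0.593) and MNT (0.14, 0.655) followed. Of 20 G2/M genes, 0 passed without the block, 4 had an unadjusted p under 0.05, again near the share of all genes, and 4 were higher with it, including BIRC5 (0.50, edgeR adjusted p = 0.0548, with the block 0.00550), CENPF (0.30, 0.149 and 0.0250) and BUB1B (0.30, 0.154 and 0.0357).

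Cytosolic ribosomal proteins, the other large group of ribosome genes, were compared as a whole. Of 82 tested among 84 listed, 1 rose and 0 fell without the block, and 4 were higher and 1 lower with it. An unadjusted p under 0.05 was found for 3 of the 82. Fold changes were above 0 for 75 and below for 7, beside 5991 and 5734 of all genes tested. The median was 0.091, beside 0.0069 over all genes and near the 0.095 of the 9 genes other than NOLC1. The gene that rose was RPL26L1, a paralog of RPL26, at 26.8, 24.5 and 23.6 FPKM in siCtrl and 49.9, 35.8 and 38.6 in siNUF2. Its log2 fold change was 0.75 (SE 0.14, edgeR adjusted p = 0.0271), and the adjusted p was between 0.0572 and 0.0955 without siCtrl library 1, 2 or 3 or siNUF2 library 1 or 3 and 0.0372 without siNUF2 library 2. RPS26 (-0.28, edgeR adjusted p = 0.144, with the block 0.0450) and RPL11 (0.29, 0.264 and 0.0197) came next, and ribosomal protein genes have many processed pseudogenes that can take or lend reads.

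**Figure D4:**
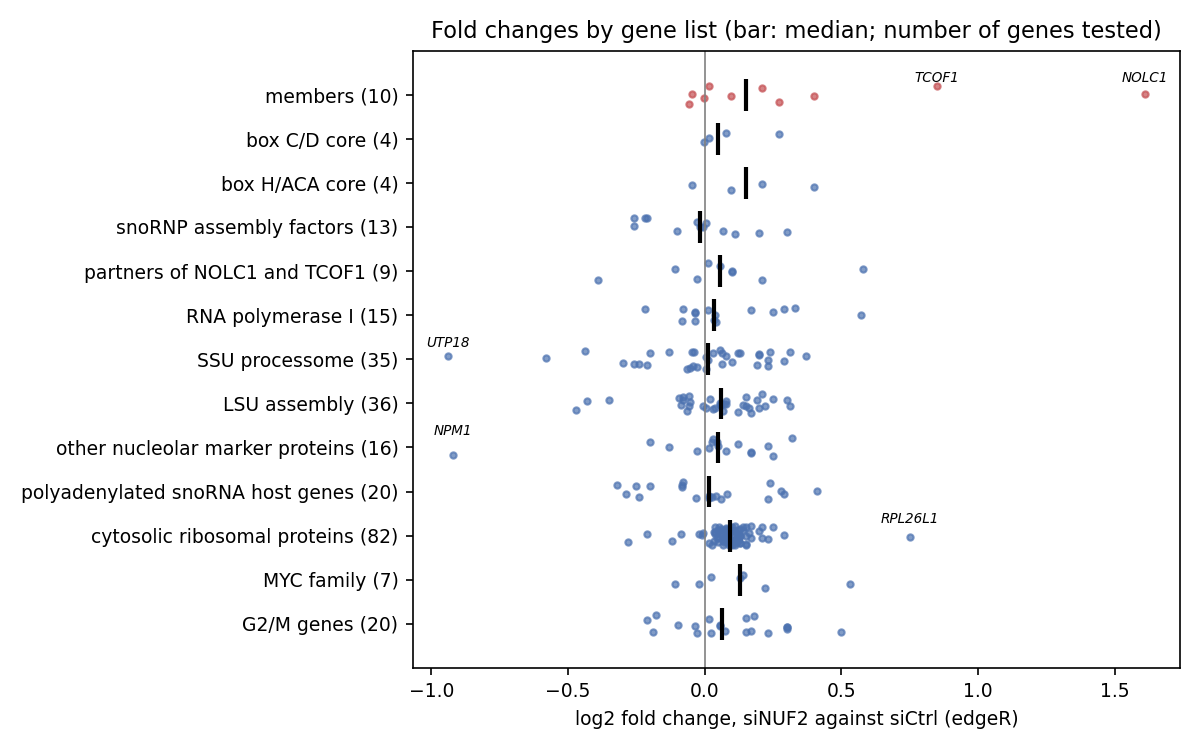
Log2 fold change (x axis) of each gene tested in the 10-gene set, labelled members, and in the lists by role, with the number tested in brackets and a bar at the median. The medians lay between -0.016 for snoRNP assembly factors and 0.15 for the 10 genes and for the box H/ACA core, and NOLC1, TCOF1, RPL26L1, UTP18 and NPM1 stand apart. Without NOLC1, on whose rise the set was selected, the median of the other members was 0.095.

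Promoter letters were read for members in the RefSeq promoter table of GRCh38.p14, which holds 250 bases before and 50 after a start site. It had 7 of the 10 genes, with 8 promoters, since GAR1 had 2. NOLC1, TCOF1 and NOP58 were not in it, so the matches below say nothing of the 2 largest risers. The E-box CACGTG was present in 3 of the 8 (FBL, NOP10 and 1 of GAR1) and in 7.26% of 35116 promoters. CCGGAAG, an ETS-type word searched on both strands, was present in 3 of the 8 (FBL, NOP10 and the other promoter of GAR1) and in 10.3%. The 2 words do not overlap each other in their letters. The 250 bases upstream are shown for FBL and DKC1, the core proteins that passed with the replicate block, since one holds the ETS-type word, in capitals, and the other neither word. They are RefSeq letters on the gene's own strand, FBL at chr19:39846380-39846629 (minus) and DKC1 at chrX:154762614-154762863 (plus).
FBL: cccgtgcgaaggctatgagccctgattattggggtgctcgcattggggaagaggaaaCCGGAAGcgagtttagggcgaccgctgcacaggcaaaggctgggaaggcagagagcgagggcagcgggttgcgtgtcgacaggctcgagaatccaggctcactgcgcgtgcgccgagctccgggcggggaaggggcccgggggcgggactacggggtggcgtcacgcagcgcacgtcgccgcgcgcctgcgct
DKC1: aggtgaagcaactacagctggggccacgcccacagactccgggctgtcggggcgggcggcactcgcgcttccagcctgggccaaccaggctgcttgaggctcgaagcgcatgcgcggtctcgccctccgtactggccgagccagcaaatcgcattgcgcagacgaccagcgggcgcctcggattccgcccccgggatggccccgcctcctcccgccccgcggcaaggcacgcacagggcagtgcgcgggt
In FBL the ETS-type word began at position -193 from the start and the E-box at position 6. The matches describe these letters and are not binding sites shown by any data here.

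The genes whose pattern over the 6 libraries was nearest to that of NOLC1 were found by the root-mean-square difference of log2(FPKM + 1), each gene centred on its own mean. They were EMC6, a subunit of the membrane protein complex of the endoplasmic reticulum (0.0994), GANAB, glucosidase II alpha (0.161), BICD2, a dynein adaptor (0.197), B4GALT1, a galactosyltransferase (0.234), and PRMT6, an arginine methyltransferase (0.236). GANAB had a mean of 104 FPKM in siNUF2 and EMC6 of 43.0, with ratios to siCtrl of 2.72 and 2.77. Among the members the nearest was TCOF1, at rank 36 of the other genes tested, followed by DKC1 at 364, FBL at 1207 and NHP2 at 1539. The last was GAR1 at 6519. NOLC1 was selected on its rise, so this measure favours genes that rose by a similar amount. The ranks are a description and add nothing to the fold changes above.

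Other overlaps and copies were few. NHP2 shares 1103 bases with RMND5B on the opposite strand, which held 2587 to 3373 counts per library, and NOP58 overlaps the lncRNA AC064836, with 102 to 226. The microRNA genes MIR1292 and MIR664B lie inside NOP56 and DKC1 and held at most 1 count. Pseudogene rows held at most 0.0756% as many counts as NOP56, 0.175% as many as NHP2 and 0.0601% as many as NCL.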

How the data were processed

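Poly(A) RNA of 3 siCtrl and 3 siNUF2 libraries of 8505C cells was sequenced in pairs of reads. Per the labels and the study's methods, the authors ran fastp, aligned reads to GRCh38 with HISAT2 and quantified them with StringTie, with versions, annotation release and strand setting not given in the sources used here. The authors deposited FPKM, which allow for library size and transcript length, and gene counts, whole and not normalized, in 12 columns, all used. Groups and replicate numbers came from the sample titles.

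Counts were fitted with edgeR 4.0.16 (quasi-likelihood, TMM, R 4.3.3) over genes averaging at least 1 FPKM, and p was adjusted by Benjamini-Hochberg over 11725 genes. The SE of an edgeR fold change is its absolute size divided by the square root of the F statistic of that fit. For NOLC1 it is given as a description and not read as a test. Alternatives used limma 3.58.1, DESeq2 1.42.0, other filters, an F-test on log2(FPKM + 1), the replicate number as a block, and each library left out. Ratios were compared with two-sided exact permutation tests in scipy 1.17.1. The members and lists were chosen with earlier results of these data known. Named genes are the members, NUF2, SNU13, the 3 genes of smallest p per list, the 5 nearest to NOLC1 and those overlapping a member.

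Libraries of the same replicate number deviated together. Deviations from group means correlated at 0.344 to 0.446 for the same number and -0.263 to -0.141 for other numbers. Such deviations cancel within a group, so these ranges are not separate evidence. What a shared number marks is not given in the labels. The labels do not say whether libraries are separate cultures, so p-values measure the spread between these libraries. Chi-square per degree of freedom between replicates was 90.1 to 132, so none was a copy. Code was tested on simulated data. Genome, transcripts and introns were of GRCh38 with GENCODE release 44. Protein sequences were not analysed here.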

Additional observations from a re-analysis of the deposited data

How the results depend on the processing

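Where 468 genes passed over all genes tested, DESeq2 called 965, no FPKM filter 188, the F-test on log2(FPKM + 1) 78 and the replicate block 1705, which held all 468, and leaving out 1 library gave 124 to 251. Of the 9 members other than NOLC1, 1 passed in the reported fit, 2 with DESeq2, 3 with the replicate block and 0 with no FPKM filter and with the F-test, and 0 to 1 with a library left out. The block changed no other member's call. The median of the 10 members, 0.15, includes NOLC1, on whose rise the set was selected, and was 0.095 without it. The 10-gene median was 0.13 with total counts only, a mean FPKM of at least 5, limma at either pseudocount and the F-test. It was 0.16 with no filter, and 0.13 to 0.18 with a library left out. The median without NOLC1 was not computed in the alternatives. With both number 1 libraries left out, an alternative chosen after seeing PTPRC and CD74 in them, 2 libraries per group remained and 0 genes passed edgeR (1223 at an unadjusted p under 0.05). NUF2 then had a log2 fold change of -2.85 (edgeR adjusted p = 0.0577), and 0 of the 9 members passed. Its fold change was -3.14 to -2.90 with 1 library left out.

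TCOF1 kept its direction in every alternative and passed narrowly with limma (adjusted p = 0.0488 and 0.0495 at pseudocounts of 1 and 0.1). It lost its call with no FPKM filter (edgeR adjusted p = 0.0918), the F-test (0.199) and both number 1 libraries left out (0.132). The call was also lost in 5 of the 6 fits that left out 1 library. UTP18 (0.0592), NPM1 (0.0645), CSNK2A2 (0.0566), NOL11 (0.109) and RPL26L1 (0.158) lost theirs under the F-test, and NOL11 (0.0849) and RPL26L1 (0.0830) with no FPKM filter. CSNK2A2, NOL11 and RPL26L1 also lost theirs in fits that left out 1 library, as given above. The cause was not tested. Paired by replicate number, no snoRNP ratio could go below an exact permutation p of 0.25. The 5 ratios taken on counts had the log2 differences of the FPKM ratios.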
